A study of Mus musculus with 8 samples.

Results

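miR-21 is a microRNA linked to fibrosis and to regeneration, and its values were taken from a study of mouse liver injured with carbon tetrachloride (CCl4), a hepatotoxin. It is 1 of the 381 assays listed on the TaqMan array cards and was found by its assay name. It was determined on all 8 cards and was 1 of 166 assays that could be tested. Female C57B6 mice, 4 weeks old at the start, were untreated or were given CCl4 for 1, 4 or 8 weeks, and each of these 4 groups holds 2 cards made from whole liver RNA. The labels give the dose as 1 mg/kg and the study's methods as 1 ml/kg, in corn oil by intraperitoneal injection. The untreated mice are labelled as controls with no treatment, and no injection of oil alone is stated for them. Mice treated for longer were also older at sampling, so time on CCl4 and age cannot be told apart. For the untreated mice only the age at the start is given. The sources do not say whether the cards of a group came from separate mice, so p-values measure the spread between cards, which may be technical.

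A microRNA is cut from a hairpin precursor, is loaded into an Argonaute protein and pairs through its seed, the bases near its 5′ end, with messenger RNAs that it represses. miR-21 is made in many cell types, is induced in growing, injured and tumour tissue, and among its known targets are Pdcd4, Spry1 and Smad7, brakes on growth, survival or TGF-beta signalling. In liver it is made by hepatocytes and also by stellate cells and leukocytes, so that a level in whole liver does not name the cell. In whole tissue, fewer cells of a type and less RNA per cell cannot be told apart.

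The sequence that the assay name stands for was read from RefSeq on GRCm38.p6, with the seed (bases 2 to 8) in capitals, and is shown with the 2 mouse paralogs because they decide what else a miR-21 assay could read.
miR-21a-5p: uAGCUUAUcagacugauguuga
miR-21b: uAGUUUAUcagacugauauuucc
miR-21c: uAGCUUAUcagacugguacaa
Mir21a lies on the minus strand, with the mature strand at chr11:86584120-86584141. It lies inside the span of Vmp1, a gene for a membrane protein of autophagy, which runs at chr11:86583858-86683836 on the same strand. The microRNA gene is 209 bases from the 3′ end of that span; whether this is exon or intron is not given in the table used. Counted from the 5′ end, miR-21b has 18 of 22 bases identical to miR-21a-5p and differs by C4U, G18A, G21U and A22C, the first of them in the seed. miR-21c has 16 of 21 identical bases, differs by A16G, G18A, U19C, U20A and G21A, and keeps the seed. The seed AGCUUAU occurs in 2 of 1679 mature mouse microRNAs (0.119%) of the RefSeq table used, miR-21a-5p and miR-21c. Which of these sequences the assay read was not tested. The card also carries miR-590-5p, which is known as a relative of miR-21 by its seed and was looked at after its values were seen. That table gave no sequence for it, so the count of seeds leaves it out. It was determined on 4 of 8 cards, at Ct 34.64 and 34.62 in untreated liver, 35.85 on 1 card at 4 weeks and 31.83 on 1 card at 8 weeks, and was not tested.

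The cards give a threshold cycle (Ct), the number of PCR cycles needed to reach a set fluorescence, and each cycle fewer stands for about 2 times as much template. In untreated liver miR-21 had a Ct of 24.95 and 24.16, after 1 week of CCl4 25.04 and 25.26, after 4 weeks 23.93 and 25.68, and after 8 weeks 23.35 and 25.48. The card means were 28.35 and 27.99, then 28.8 and 28.6, 28.3 and 29.8, and 27.5 and 28.9 in the same order. The paired cards at 4 and at 8 weeks were thus 1.75 and 2.13 cycles apart for miR-21, beside 1.52 and 1.40 cycles for the card mean. Levels are therefore given relative to the card: the Ct of the assay was subtracted from the mean over the 149 assays that stayed under Ct 35 throughout, which gives a log2 level. The number of assays with a Ct ranged from 193 to 235 per card.

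On that scale miR-21 stood at 3.40 and 3.83 in untreated liver, at 3.73 and 3.34 after 1 week, at 4.32 and 4.09 after 4 weeks, and at 4.13 and 3.40 after 8 weeks of CCl4. With this centring both cards at 4 weeks lay above both untreated cards and above both cards at 1 week. The study's methods name the geometric mean of each plate instead. Centred on the geometric mean of all determined assays, the cards at 4 weeks stood at 0.88 and -0.11 relative to the untreated mean and the untreated cards at -0.31 and 0.31, so that 1 card at 4 weeks fell within the untreated range; the log2 difference was then 0.39 (limma adjusted p = 0.641). Under that centring the cards at 1 week, at -0.37 and -0.48, both lay below both untreated cards, and those at 8 weeks stood at 0.56 and -0.32, above and just below the untreated range. With the centring used here, 1 card at 1 week lay below both untreated cards, and at 8 weeks 1 card lay above both and the other at the lower end of the untreated range. As a linear level relative to the untreated mean, miR-21 was 1.00 ± 0.212 in untreated liver, 0.942 ± 0.178 after 1 week, 1.498 ± 0.168 after 4 weeks and 1.13 ± 0.400 after 8 weeks (SD, n = 2 each). In order of level the groups ran from 4 weeks through 8 weeks and untreated to 1 week, and no neighbours in that order were separated by the test.

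**Figure D1:**
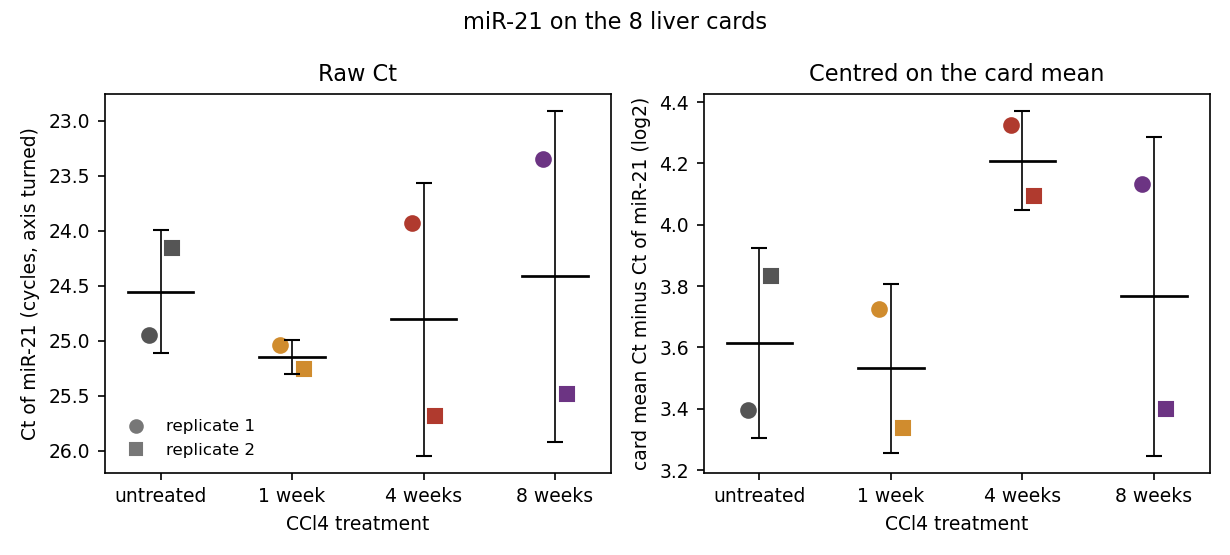
miR-21 on each of the 8 cards, as Ct and as the log2 level after centring on the card mean, by group. The cards at 4 weeks sit at 4.32 and 4.09, above the untreated cards at 3.40 and 3.83, and the cards at 8 weeks are the farthest apart, at 4.13 and 3.40.

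The cards of a group differed by 0.44 for untreated liver, 0.39 after 1 week, 0.23 after 4 weeks and 0.73 after 8 weeks on the log2 scale. The pooled SD between replicate cards was 0.34 for miR-21, close to the median of 0.39 over the tested assays. Over all 8 cards its SD was 0.38 against a median of 0.72, and 147 of the other assays varied more. With this centring its SD over the cards ranked 19 from the smallest of the 166, while its SD between replicate cards ranked 71. Its mean Ct was 24.7.

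The first question of the design was whether miR-21 differs from untreated liver after each length of CCl4. limma's test with Benjamini-Hochberg adjustment over the 166 assays called miR-21 at none of the times. At 1 week it was 0.944 times the untreated level (95% interval 0.530 to 1.68, log2 difference -0.08, SE 0.36, adjusted p = 0.881), while 32.5% of the tested assays were called. At 4 weeks it was 1.51 times the untreated level (0.849 to 2.69, log2 difference 0.60, adjusted p = 0.240), with 30.1% of assays called. At 8 weeks it was 1.11 times the untreated level (0.624 to 1.98, log2 difference 0.15, adjusted p = 0.799), with 3.01% called. The 3 comparisons share the untreated cards. With the SE of miR-21, a log2 change of 1.11 at 1 week, 1.14 at 4 weeks and 1.97 at 8 weeks would have been the smallest to be called, so smaller changes were not detectable with 2 cards a group. The call at 4 weeks rests on the scaling: with the 3 control RNAs and with U6 alone miR-21 passed the test there, at log2 differences of 1.24 and 2.10, where 56 of 166 and 82 of 165 assays passed, and with raw Ct values the difference was -0.25. At 1 week the sign depended on the reference as well, from -2.46 with U6 alone, which was called, to 1.31 with snoRNA202. At 4 weeks quantile normalization gave 1.25 and a call, but with tied cards, as described with the references.

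The difference at 4 weeks placed miR-21 at 53 of the 166 assays counted from the highest, and 103 assays moved by more in either direction. Of the tested assays 33.7% likewise had both cards at 4 weeks above both untreated cards. At 1 week miR-21 ranked 83 and at 8 weeks 71, in the middle of the card. All 6 treated cards together stood 0.22 above the 2 untreated cards on the log2 scale (95% interval -0.46 to 0.90, limma adjusted p = 0.639), with 28.9% of assays called. Of the treated cards 3 lay above both untreated cards, 2 between them and 1 below. The exact two-sided permutation test over the 28 ways to choose 2 of 8 cards gave p = 0.536, and the smallest p this design allows is 0.0357.

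**Figure D2:**
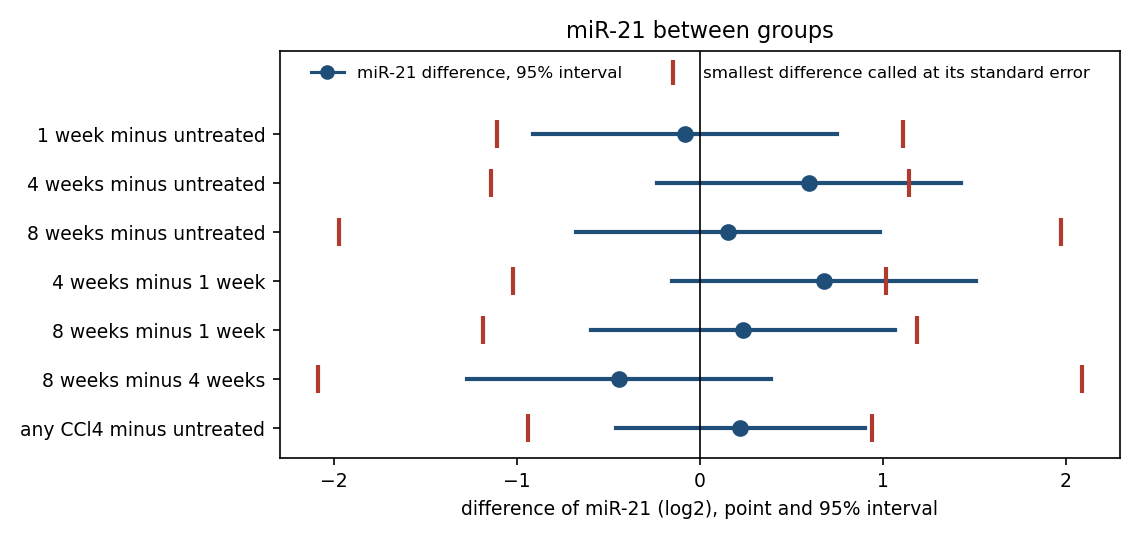
Log2 difference of miR-21 in each of the 7 comparisons, with its 95% interval from limma. The interval spans 0 in each of them, from -0.24 to 1.43 for 4 weeks against untreated and from -0.15 to 1.51 for 4 weeks against 1 week.

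Between the treatment times the difference farthest from 0 was that between 4 weeks and 1 week. miR-21 was 1.60 times higher at 4 weeks (95% interval 0.899 to 2.85, log2 difference 0.68, limma adjusted p = 0.145), where 47% of the assays were called and 36.7% had both later cards above both earlier ones. This depended on the reference, since the difference was called with the 3 control RNAs (1.56) and U6 alone (4.56) and turned to -0.32 with snoRNA202 and -0.29 with miR-122. From 1 to 8 weeks the level was 1.18 times as high (0.661 to 2.10, adjusted p = 0.627), with 24.1% called, and the log2 difference ran from -1.05 with miR-122 to 3.73 with U6 alone, the latter called. From 4 to 8 weeks it was 0.736 times as high (0.413 to 1.31, adjusted p = 0.529), with 1.2% called. The F test over the 3 times gave F = 1.44 for miR-21 (limma adjusted p = 0.353), at rank 143 of 166, while 54.2% of the assays passed it. With the 3 control RNAs (F = 6.26) and U6 alone (F = 15.2) miR-21 passed it too, as it did with the tied values of quantile normalization (F = 29.5).

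**Figure D3:**
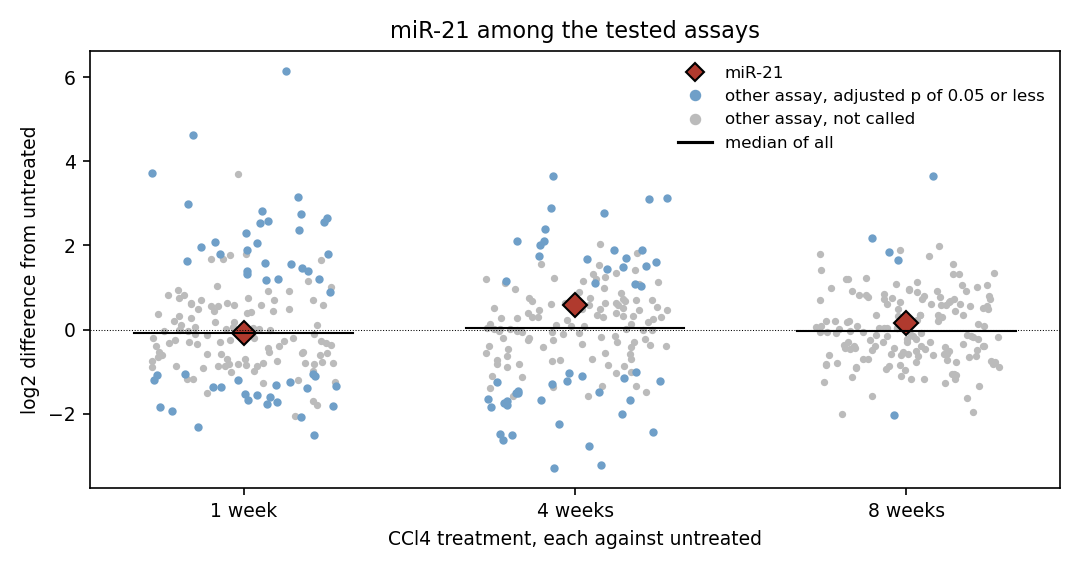
Log2 differences from untreated liver of the tested assays at 1, 4 and 8 weeks, with miR-21 marked. miR-21 lies at ranks 83, 53 and 71 of 166 from the highest, at log2 differences of -0.08, 0.60 and 0.15.

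The order of Ct values within a card needs no scaling between cards. Counted from the lowest Ct, miR-21 held places 23 and 21 in untreated liver, 25 and 26 after 1 week, 13 on both cards after 4 weeks and 17 on both after 8 weeks. All 4 cards of the later times thus placed miR-21 earlier than any untreated or 1-week card did, a split of the cards that was not tested. How many other assays split the cards in this way was not counted. Separation was common on the centred scale, in either direction. There 68.1% of assays had no overlap between 4 weeks and untreated liver, and 74.7% between 4 weeks and 1 week. Between single groups, 2 cards against 2 cannot give an exact two-sided permutation p under 0.333. The assays behind this change of order were looked for after the order was seen. At 4 weeks miR-21 had passed 8 assays that came earlier on both untreated cards and later on both treated ones, and these were miR-126-5p, miR-17, miR-194, miR-26a, miR-29c, miR-30b, miR-30e and miR-31. At 8 weeks it had passed 4 of these, miR-194, miR-29c, miR-30e and miR-31. At 1 week the order moved the other way: miR-21 had passed miR-29c alone, while 4 assays, miR-146b, miR-222, miR-223 and miR-342-3p, had passed miR-21. miR-223, a microRNA of neutrophils and other myeloid cells, had passed it at 4 and 8 weeks too.

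The difference between miR-21 and each of the 165 other tested assays on the same card, an alternative added after the data were seen, was also tested with limma. At 4 weeks miR-21 rose relative to 43 assays (26.1%) and fell relative to 6 (3.64%). At 1 week it rose relative to 7 (4.24%) and fell relative to 24 (14.5%), and at 8 weeks it rose relative to 1 and fell relative to 1 (0.606% each). Between 1 and 4 weeks it rose relative to 57 of the assays (34.5%) and fell relative to 8 (4.85%). A change of the other assay enters these counts as much as one of miR-21, and the counts for a typical assay were not computed. At 4 weeks 16.9% of all tested assays fell on the centred scale, while miR-21 itself was not called.

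miR-126-3p, the microRNA that marks endothelial cells, gives one such contrast. The log2 level of miR-21 minus that of miR-126-3p was -4.38 and -4.48 in untreated liver, -4.99 and -5.31 after 1 week, -2.30 and -1.71 after 4 weeks, and -3.38 and -3.33 after 8 weeks. The cards at 4 weeks stood apart from all the others. From untreated liver the difference changed by -0.72 at 1 week (limma adjusted p = 0.259), 2.43 at 4 weeks (adjusted p = 0.0031) and 1.08 at 8 weeks (adjusted p = 0.193), so only the gain at 4 weeks passed. The gain of 3.15 from 1 to 4 weeks passed as well (adjusted p = 0.000517), as did the gain of 1.80 from 1 to 8 weeks (adjusted p = 0.0167). On the centred scale the 3.15 was made up of a change of -2.47 in miR-126-3p and 0.68 in miR-21. The 2.43 from untreated liver was made up of -1.83 in miR-126-3p, which was called, and 0.60 in miR-21, which was not. miR-29a, which represses collagen messenger RNAs, gave -3.25 and -2.38 in untreated liver, -2.10 and -2.40 after 1 week, -0.89 and -1.13 after 4 weeks, and -1.80 and -2.51 after 8 weeks, so that the cards at 4 weeks again stood highest. The gain of miR-21 over miR-29a from untreated liver passed at 4 weeks (1.81, adjusted p = 0.0194) but not at 1 week (0.57, adjusted p = 0.400) or 8 weeks (0.66, adjusted p = 0.460). On the centred scale the 1.81 was made up of a change of -1.21 in miR-29a, which was called (adjusted p = 0.0142), and 0.60 in miR-21, which was not. Against miR-223 the levels went the other way, at 0.40 and 0.42 in untreated liver, -1.76 and -1.70 after 1 week, -1.79 and -1.74 after 4 weeks, and -0.37 and -0.95 after 8 weeks. Each treated card lay below both untreated cards, and how many of the other contrasts separated likewise was not counted. limma called the fall relative to miR-223 at 1 week (-2.14, adjusted p = 0.0066) and 4 weeks (-2.18, adjusted p = 0.0043) but not at 8 weeks (-1.07, adjusted p = 0.191). On the centred scale it was made up mainly of miR-223, which changed by 2.06 at 1 week and 2.77 at 4 weeks. miR-21 itself changed by -0.08 and 0.60 there and was not called.

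Against miR-199a-3p, a microRNA of stellate and other mesenchymal cells, the difference changed by -0.42, -0.50 and -0.53 at the 3 times, and none of these passed the test. Against miR-122, the main microRNA of hepatocytes, it changed by 1.12, 0.83 and 0.07, again with no call. The paired cards lay far apart in that last contrast, with miR-21 minus miR-122 at -1.38 and -3.26 after 8 weeks.

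microRNAs reported to rise in fibrosis formed a list of 13, of which 11 are on the card and 10 were tested. Of these 10, 3 rose and 1 fell at 1 week, 4 rose and 1 fell at 4 weeks, and 1 rose at 8 weeks, with median log2 differences of 0.17, 0.89 and 0.33 beside -0.09, 0.03 and -0.04 over all tested assays. Of all 166 assays 18.1% rose and 14.5% fell after 1 week, 13.3% rose and 16.9% fell after 4 weeks, and 2.41% rose and 0.602% fell after 8 weeks. The member that fell at 1 and 4 weeks was miR-27b, named after its values were seen. In this list 6, 8 and 7 members stood above miR-21 at the 3 times. miR-34a, a p53 target named after its values were seen, rose by 1.56, 1.44 and 1.66 at the 3 times (limma adjusted p = 0.0080, 0.0110 and 0.0231). miR-214, a partner of miR-199a in mesenchymal cells, rose at 4 weeks by 1.69 (adjusted p = 0.0110), and miR-199a-3p by 1.10 (adjusted p = 0.0457). At 4 and 8 weeks miR-221 stood at 0.75 and 0.34 and miR-222 at 0.22 and -0.35, with no call. Of 14 microRNAs reported to fall in fibrosis, 2 rose and 3 fell at 1 week, 5 fell at 4 weeks and none was called at 8 weeks, with medians of -0.45, -0.92 and -0.79. The 2 that rose at 1 week, named after their values were seen, were miR-150 and miR-146a, microRNAs of lymphocytes and of the NF-kB response. miR-29c, of the collagen-repressing miR-29 family, stood at -1.20, -1.99 and -0.82. Of these 14, 4 stood above miR-21 at 1 week, 1 at 4 weeks and 1 at 8 weeks. Of 12 growth-linked microRNAs, 2 rose and 1 fell at 1 week, 1 rose and 1 fell at 4 weeks and none was called at 8 weeks, with medians of -0.02, 0.34 and -0.10.

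Some of the markers of the cell types of liver were called at these times, mainly those of leukocytes at 1 and 4 weeks and of hepatocytes at 4 weeks, and their part in the level of miR-21 was not tested. Of 6 leukocyte microRNAs, 5 rose at 1 week, 4 at 4 weeks and none at 8 weeks. Their summed level was 74.5% to 126% of the untreated mean in untreated liver, 335% to 357% after 1 week, 278% to 377% after 4 weeks and 139% to 198% after 8 weeks. miR-223 led them, with log2 differences of 2.06, 2.77 and 1.22, of which the first and the second passed the test. Of 6 hepatocyte microRNAs, 1 fell after 1 week, 5 after 4 weeks and 1 after 8 weeks, and their summed level was 57.6% to 59.4%, 33.9% to 38.04% and 59.2% to 69.0% of the untreated mean. miR-802 was the most lowered member at each time and was called at all 3, with log2 differences of -1.72, -3.28 and -2.04, whereas miR-122 stood at -1.20, -0.23 and 0.09 and was called at none. Of 4 stellate and smooth muscle microRNAs tested, 2 rose at 4 weeks, where their summed level was 124% to 168%. Both endothelial arms fell at 4 weeks, to a summed 21.2% to 36.9%. Neither arm was called at 1 week, with a summed 146% to 153%, or at 8 weeks, with 39.2% to 69.9%. Neither red cell microRNA was called at any of the 3 times, and of 5 epithelial microRNAs 1 rose at 1 week and 1 fell at 4 weeks. In the change from untreated liver, none of the 6 hepatocyte microRNAs stood above miR-21 at any of the 3 times. Of the 6 leukocyte microRNAs 5 stood above it at each time, but not the same 5. The leukocyte member below miR-21 was miR-142-3p at 1 week and miR-150 at 4 and 8 weeks, named after their values were seen.

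The 5 assays whose card-to-card course was most like that of miR-21 were chosen by the smallest root mean square difference over the 8 cards, after each assay's own mean was subtracted. They are shown with their RefSeq sequences because their seeds differ from that of miR-21.
miR-93-5p: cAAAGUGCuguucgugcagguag
miR-301a-3p: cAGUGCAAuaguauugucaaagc
miR-130b-3p: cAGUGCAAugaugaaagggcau
miR-27a-3p: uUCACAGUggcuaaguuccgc
let-7i-5p: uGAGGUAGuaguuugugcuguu
miR-301a-3p and miR-130b-3p share the seed AGUGCAA, which 7 of the 1679 mature microRNAs hold (0.417%). The difference was 0.252 for miR-93, 0.305 for miR-301a, 0.313 for miR-130b, 0.322 for miR-27a and 0.356 for let-7i, against a median of 0.744 over the 165 other assays. The next assay, miR-148b, stood at 0.363, so the list has no sharp end. Across the 8 cards Pearson's r with miR-21 was 0.74, 0.82, 0.55, 0.53 and 0.57 in the same order, as a description of cards that share their centring. At 4 weeks these assays stood 0.46, 0.75, 0.40, 0.62 and 0.50 above untreated liver, beside 0.60 for miR-21. The assays were chosen on these same cards, so this closeness is partly built in. The choice depends on the measure, since ranking by Pearson's r keeps 2 of the 5 and quantile normalization 1.

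**Figure D4:**
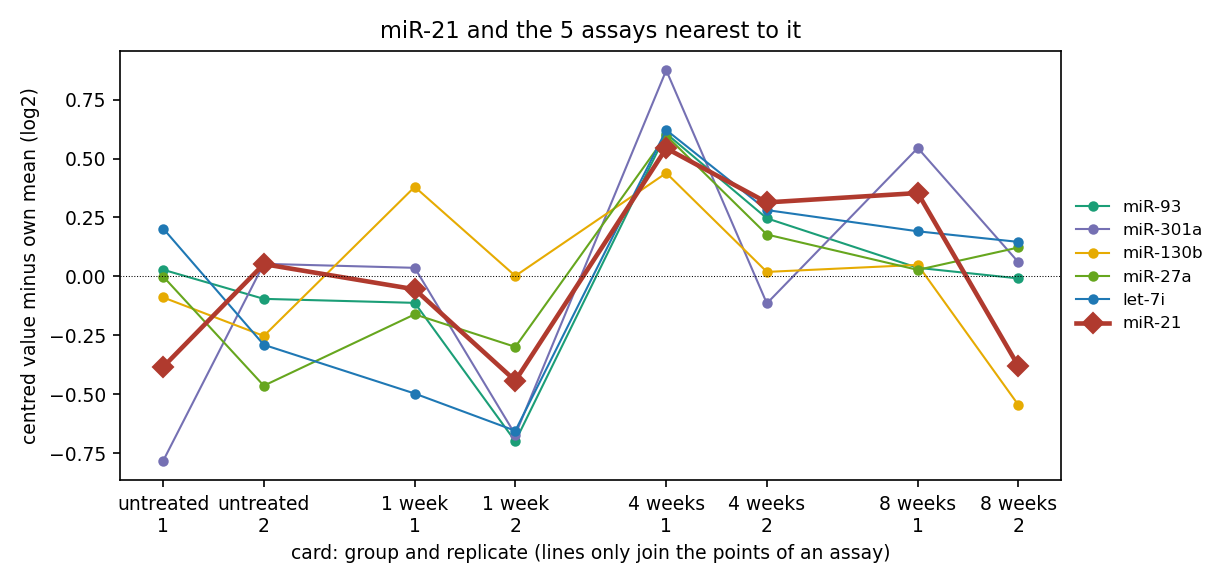
Log2 level of miR-21 and of the 5 most similar assays on the 8 cards, each after its own mean was subtracted, with lines that only join the cards of an assay. The root mean square differences from miR-21 run from 0.252 for miR-93 to 0.356 for let-7i.

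The choice of reference moved every assay of a card together. At 4 weeks the median difference over all tested assays was 0.03 with the card mean, 0.67 with the 3 control RNAs, 1.54 with U6 alone and -0.82 with raw Ct values. miR-21 kept rank 53 in each, which such a shift cannot change, so this says nothing about stability. Over all alternatives, some with other numbers of tested assays, its rank at 4 weeks ran from 20 to 77. U6, a spliceosomal RNA used as a control, had a Ct of 18.42 and 17.24 in untreated liver, 15.76 and 16.17 after 1 week, 19.47 and 20.89 after 4 weeks, and 17.74 and 20.17 after 8 weeks. On the card mean scale U6 was itself called as changed, by 2.38 at 1 week (limma adjusted p = 0.0080) and by -1.50 at 4 weeks (adjusted p = 0.0417). At 4 weeks snoRNA135 stood at -0.03 and snoRNA202 at -0.39, neither of them called, and at 1 week snoRNA202 was called at -1.39 (adjusted p = 0.0139). Against U6, miR-21 fell by 2.46 at 1 week and rose by 2.10 at 4 weeks on the log2 scale. Against snoRNA135 it changed by 0.19, 0.63 and 0.21 at the 3 times and against snoRNA202 by 1.31, 0.99 and 0.37, and limma called none of these. Quantile normalization gave miR-21 the same value on both cards at 4 weeks and on both at 8 weeks, where it held the same place in the order of assays, and put it at rank 20. The spread within those groups was then 0 by construction, and the error behind its calls under that setting is too small.

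**Figure D5:**
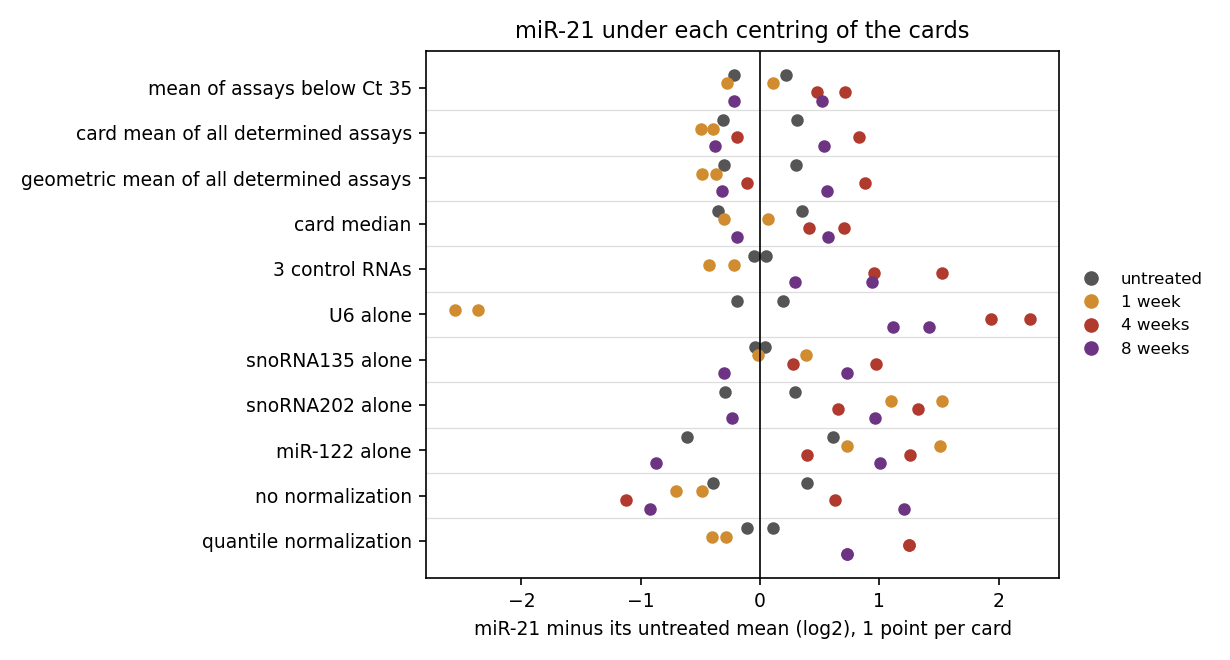
Level of miR-21 on each card minus the untreated mean (log2) under each choice of reference. At 4 weeks the group mean lies between -0.25 with raw Ct values and 2.10 with U6 alone, and it is 0.60 with the card mean.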

How the data were processed

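The authors deposited the Ct of each assay on each card, not normalized and without pooling; the values are cycles and count down as template goes up, and wells with no Ct are empty. RNA from whole liver was reverse transcribed without pre-amplification. A table of the authors' own fold changes against untreated liver was not used. All 8 cards were used, although the design text gives 4, 3 and 2 mice for the treatment times.

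Values were centred on the card mean over assays below Ct 35 on every card. The tested assays had a Ct on each card and a mean under 35. They were fitted in a single model over the cards (lmFit, then eBayes, of limma 3.58.1, run in R 4.3.3) and adjusted by the Benjamini-Hochberg method within each comparison at 0.05. The fit was tested on simulated data. Sequences and positions came from RefSeq on GRCm38.p6, by name, with names lacking an arm read as the guide strand. Plots were drawn with matplotlib 3.10.9.

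The members and lists were chosen with earlier results of these data known. Named were miR-21, the 5 most similar assays, the control RNAs and up to 4 tested members of each list in list order; others are stated as chosen after their values were seen. Alternatives were other references for the centring, Ct limits of 32 or none, undetermined wells at Ct 40, a block for the replicate number, a trended eBayes, fits limited to the compared groups, a threshold of 0.1 and the omission of each card.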

Additional observations from a re-analysis of the deposited data

How the results depend on the processing

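miR-21 was called against untreated liver only with some references, and its direction depended on them. A reference RNA shifts every assay of a card alike, and with U6 alone 126 and 82 of 165 assays were called at 1 and 4 weeks, with the 3 controls 56 of 166 at 4 weeks. At 1 week the log2 difference was -2.46 with U6 alone (called), 0.19 with snoRNA135, 1.31 with snoRNA202 and 1.12 with miR-122. At 4 weeks it was called with the 3 control RNAs (1.24), U6 (2.10) and quantile normalization (1.25), and was -0.25 with raw Ct. For any CCl4 centring on every determined assay gave -0.015, and it was -0.24 with raw Ct and 0.55 with quantile normalization (called, adjusted p = 0.0490). For 4 weeks minus 1 week it was called with the 3 controls (1.56), U6 (4.56) and quantile normalization (1.59), and was -0.32 with snoRNA202 and -0.29 with miR-122. For 8 weeks minus 1 week it was called with U6 (3.73) and quantile normalization (1.08), and was -0.95 with snoRNA202 and -1.05 with miR-122. For 8 weeks minus 4 weeks raw Ct gave 0.39. The F value passed the test with the 3 controls (6.26), U6 (15.2) and quantile normalization (29.5). Quantile normalization tied both cards at 4 weeks and both at 8 weeks, so its spread there is 0 and those calls say nothing about stability. The other alternatives kept direction and call.

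Leaving out a card leaves 1 card in its group, assumed to vary like the other groups, so the lack of a call for miR-21 in those fits says nothing about stability. The log2 difference ran from -0.30 to 0.14 for 1 week, from 0.38 to 0.81 for 4 weeks and from -0.21 to 0.52 for 8 weeks against untreated liver, from 0.48 to 0.87 for 4 weeks minus 1 week, from -0.13 to 0.60 for 8 weeks minus 1 week, from -0.81 to -0.08 for 8 minus 4 weeks and from 0.0034 to 0.44 for any CCl4, and F from 0.566 to 2.09. The sign at 1 week turned without untreated card 2 (0.14) or 1-week card 2 (0.11), at 8 weeks without untreated card 1 (-0.07) or 8-week card 1 (-0.21), and for 8 weeks minus 1 week without 8-week card 1 (-0.13). With a replicate block, the adjusted p at 4 weeks was 0.253 and no call for miR-21 changed; same-numbered cards of different groups deviated together with correlations from -0.50 to 0.43, so the numbers were not taken to pair the cards.

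The number of assays called ranged over the alternatives from 5 to 126 for 1 week (54 as reported), 3 to 82 for 4 weeks (50), 0 to 40 for 8 weeks (5) against untreated liver, 29 to 150 for 4 minus 1 week (78), 4 to 158 for 8 minus 1 week (40), 0 to 9 for 8 minus 4 weeks (2), 2 to 59 for any CCl4 (48) and 23 to 158 for the F test (90). Where limma called 0 assays, 11 to 45 at 8 weeks and 17 to 27 for 8 minus 4 weeks had an unadjusted p under 0.05.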
